A study of Mus musculus with 20 samples.

Results

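Translation initiation factors were followed in the intervertebral disc of ank mice and their WT littermates. The 42 genes described here are those whose symbol starts with Eif and a digit from 1 to 6, without the Eif2ak kinases and the sex-linked Eif2s3x and Eif2s3y, and each was measured by a single probe set. They belong to the 19505 named genes of the arrays. The ank mice were homozygous for the progressive ankylosis allele of Ank, a loss-of-function allele of a membrane protein that takes part in pyrophosphate export, and carry it in every tissue. The nucleus pulposus (NP), the gelatinous core of the disc, and the annulus fibrosus (AF), its fibrous ring, were dissected from the discs of 5 ank and 5 WT mice, each group with 2 males and 3 females, all 13 weeks old, and each mouse gave 1 array per tissue, 20 arrays in all. The discs of an animal were pooled for its sample. The extraction protocol names caudal and lumbar discs, and the study's methods name caudal discs. Ank itself was not analysed here, so the genotype labels were not checked on it. Values are log2 signals as deposited by the authors, and a difference of 1 is a doubling of the signal.

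Initiation of translation assembles a ribosome at a start codon. The factor eIF2 brings the initiator tRNA to the small ribosomal subunit and is recharged with GTP by eIF2B, while eIF1 and eIF1A govern scanning and eIF5B joins the large subunit. The eIF3 complex holds the small subunit and the mRNA together, and the eIF4 group binds the cap and unwinds the leader under the control of eIF4E-binding proteins. Disc cells live with little oxygen and few nutrients in a matrix that they themselves secrete, and protein synthesis costs much energy.

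The 42 genes were sorted by role into 8 factors of start codon selection and initiator tRNA delivery, 5 subunits of eIF2B, 12 subunits of eIF3, 11 genes of the eIF4 group, 3 eIF4E-binding proteins and 3 genes of eIF5A and eIF6. Eif1, Eif2s1, Eif5, Eif3g, Eif3j1, Eif4a2, Eif4a3l2, Eif4g1 and Eif4ebp3 were not analysed here. A gene was taken as above background on an array where its signal passed the 95th percentile of that array's 1427 receptor genes for odorants, pheromones and trace amines, which the disc should not use, and it was tested in a tissue where at least 5 of the 10 arrays passed. In the NP 34 of the 42 genes were tested, 21 of them above background on all 10 arrays, and 3 genes (Eif2b4, Eif4e1b and Eif4e3) were above background on no array. In the AF 21 genes were tested, 8 of them above background on all 10 arrays, and 9 genes were above it on none. Each tested gene passed on arrays of both genotypes.

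The arrays differed in control signal, marker levels and spike-in signal, also among mice of the same genotype. The control AUC, the share of pairs of a positive and a negative control probe set in which the positive one is brighter, was 0.710 to 0.785 in ank NP, 0.725 to 0.789 in WT NP, 0.590 to 0.749 in ank AF and 0.607 to 0.763 in WT AF. The lowest, 0.590, was the AF array of ank mouse 31, on which 9 of the 42 initiation factors were above background, against 17 to 31 on the other AF arrays. The AF array of WT mouse 33 had the highest AUC of the AF, 0.763, and stood apart in markers of other tissues. The skeletal muscle list (12 genes) was 5.89 to 7.62 in ank AF, 5.86 in the lowest WT AF array and 13.89 in WT mouse 33. The osteoblast list (7 genes measured) was 6.89 to 9.71 in ank AF, 6.95 in the lowest WT AF array and 14.74 in WT mouse 33. The lists of macrophage and osteoclast (12.43), endothelium (8.07) and cartilage (14.71) markers were also highest in this array among those of the AF. The list of NP and notochord markers, 9 genes measured, lay between 14.12 and 14.51 in ank NP and between 14.13 and 14.60 in WT NP, with 7 or 8 of them above background. In the AF it spread from 9.69 to 13.42 in ank mice, with 5 to 7 above background, and from 8.72 to 12.32 in WT mice, with 4 to 7. The list of AF and tendon markers, 9 genes measured, was 10.08 to 11.27 in ank AF and 10.32 to 12.01 in WT AF, with 5 to 7 above background in both. Its highest value too was that of WT mouse 33. Bacterial spike-in transcripts split the arrays of each tissue into a set with high spike-in signal (set A) and a set with low signal (set B), both holding ank and WT mice. In the AF, set A held ank mice 31 and 34 and WT mice 32 and 33, and set B the other 3 ank and 3 WT mice. Because these are bulk tissue samples, fewer cells of a type and less RNA per cell cannot be told apart. Whether any of these features set the differences described here was not tested, and the AF differences of the genes given per array, the AF count at the thresholds and the tissue by genotype count are also given without ank mouse 31 and WT mouse 33.

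In the AF of ank mice Eif3m stood out among the initiation factors. Eif3m, a subunit of eIF3, had log2 signals of 10.71, 10.30, 10.52, 11.85 and 11.67 in ank AF and 10.08, 9.89, 8.96, 9.02 and 9.77 in WT AF, in the order of ank mice 31, 34, 39, 41 and 48 and of WT mice 32, 33, 53, 55 and 59, which is kept throughout. The lowest ank array lay above the highest WT array, so the genotypes did not overlap. The means were 11.01 ± 0.70 in ank AF and 9.54 ± 0.52 in WT AF (SD, n = 5 each), a difference of 1.47 ± 0.42 (SE, limma p = 0.00469, adjusted p = 0.947, exact permutation p = 0.00794), or 2.76-fold. It ranked 6 by p among the 4080 genes tested in the AF, and none of these genes passed the adjustment for multiple testing. Its exact permutation p, two-sided, is the smallest that 5 against 5 mice allow. Eif3m lay higher in ank than in WT within both spike-in sets, by 0.52 in set A and by 2.10 in set B, by 1.63 without ank mouse 31 and WT mouse 33, and by 1.08 after quantile normalization of the AF arrays.

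The same gene showed no such separation in the NP. There Eif3m had signals of 12.24, 13.00, 13.06, 13.57 and 13.12 in ank NP and 13.31, 12.96, 12.46, 13.11 and 12.78 in WT NP. Ank mouse 31 was lowest and ank mouse 41 highest of all 10, so the WT arrays lay inside the ank range. The difference was 0.07 ± 0.31 (SE, limma p = 0.813, adjusted p = 0.991, exact permutation p = 0.77), and its sign turned without ank mouse 41 (−0.069) or WT mouse 53 (−0.041) and within set A (−0.14).

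Whether the effect of the genotype differed between the tissues was tested on the NP minus AF difference of each mouse, which cancels a constant offset between the tissues. Eif3m was higher in the NP than in the AF by 1.53, 2.70, 2.54, 1.72 and 1.45 in ank mice and by 3.23, 3.07, 3.50, 4.09 and 3.01 in WT mice. The excess in the NP was smaller in each ank mouse than in any WT mouse. The genotype effect was lower in the NP than in the AF by 1.39 on the log2 scale, a value of −1.39 ± 0.47 (SE, limma p = 0.00983, adjusted p = 0.801, exact permutation p = 0.0079), at rank 17 of 3905 genes. Eif5b was the other initiation factor of the 21 tested with an unadjusted p under 0.05, with −1.20 ± 0.53 (SE, limma p = 0.0394, adjusted p = 0.801, exact permutation p = 0.0397), and 4.94% of all genes lay under the same limit. After quantile normalization neither did, with −0.83 for Eif3m and −0.79 for Eif5b, where 3.15% of all genes did. With 1 mouse left out at a time Eif3m stayed under the limit in all 10 fits, and Eif5b missed it in 6, without ank mouse 34, 41 or 48 or WT mouse 32, 53 or 59. Without ank mouse 31 and WT mouse 33 together 8 of the 21 lay under the limit, beside 28.1% of all genes, with −1.36 for Eif3m and −1.61 for Eif5b. The median over the 21 genes was −0.45, beside −0.42 over all genes, and 18 of the 21 values were negative. Without both mice it was −1.11, beside −0.81 over all genes.

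**Figure D1:**
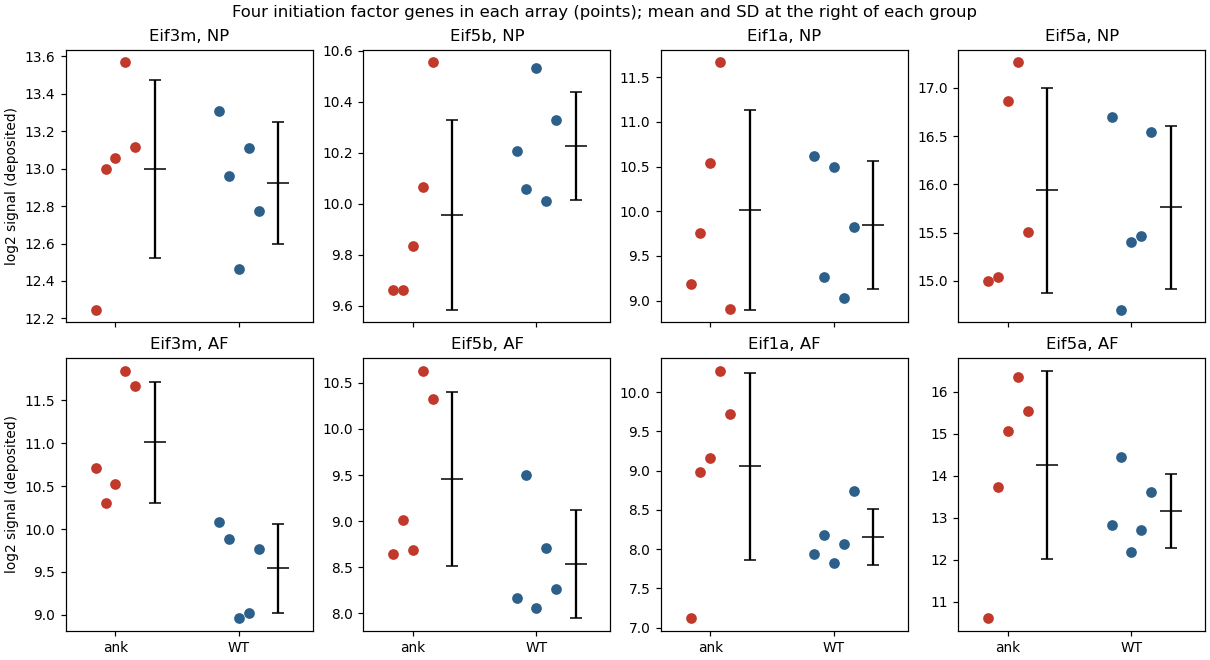
Deposited log2 signals (vertical axis, one scale per panel) of Eif3m, Eif5b, Eif1a and Eif5a in NP arrays (top) and AF arrays (bottom), with a point per mouse, ank left and WT right, and the mean and SD of 5 mice beside each group. The genotypes part without overlap for Eif3m in the AF, at 10.30 and above in ank and 10.08 and below in WT, and overlap in the other panels.

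RefSeq promoter sequences (GRCm38.p6) were matched by symbol for 31 of the 42 genes and searched over the 250 bases before the start of transcription, on both strands, for the E-box CACGTG and the ETS-type motif CCGGAAG. The E-box, its own reverse complement and a known target of Myc proteins and of the CLOCK and BMAL1 pair, was present for 8 of the 31 genes (25.8%) and for 6.86% of all 27025 genes with a promoter. The ETS-type motif was present for 11 of the 31 (35.5%) and for 7.83% of all genes. The motifs were counted apart, wherever they lay. A gene with several promoters was counted if any of them held the motif. By promoter, the E-box was in 10 of 43 of these genes and in 6.02% of all 32851. The ETS-type motif was in 11 of 43 and in 6.91%. All genes here include those not tested in the disc, and the share among tested genes was not counted. The sequences of Eif3m and Eif5b are shown because these genes had the smallest p-values in the AF, and that of the more downstream start of Eif4e because it holds the E-box more than once. Capitals mark the motifs. The window of Eif3m (chr2:105017028-105017277, minus strand) holds 1 ETS-type motif, that of Eif5b (chr1:37997760-37998009, plus strand) holds neither, and that of Eif4e (chr3:138527018-138527267, plus strand) holds 2 E-boxes. A match is one of letters only.
Eif3m: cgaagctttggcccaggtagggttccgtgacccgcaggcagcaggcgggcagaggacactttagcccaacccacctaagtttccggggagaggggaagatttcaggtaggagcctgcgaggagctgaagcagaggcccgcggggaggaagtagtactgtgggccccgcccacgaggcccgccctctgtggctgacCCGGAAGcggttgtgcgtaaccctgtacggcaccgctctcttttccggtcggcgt
Eif5b: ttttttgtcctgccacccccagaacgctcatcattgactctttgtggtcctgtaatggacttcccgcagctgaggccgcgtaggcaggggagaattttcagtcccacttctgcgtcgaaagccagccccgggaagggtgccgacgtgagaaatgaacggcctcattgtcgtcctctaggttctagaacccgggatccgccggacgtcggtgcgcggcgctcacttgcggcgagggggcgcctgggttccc
Eif4e: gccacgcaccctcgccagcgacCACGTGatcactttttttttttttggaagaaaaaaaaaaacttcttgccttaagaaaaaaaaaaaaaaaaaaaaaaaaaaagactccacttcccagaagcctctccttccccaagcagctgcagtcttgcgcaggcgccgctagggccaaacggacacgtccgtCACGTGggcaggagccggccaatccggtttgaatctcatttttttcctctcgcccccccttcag

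Across the AF, 19 of the 21 initiation factors tested had a higher mean in ank than in WT mice and 2, Eif4g2 and Eif3f, a lower one. This is 90.5% of them, beside 72.4% of all 4080 genes tested, and the median difference was 0.49, beside 0.28 over all genes. The median was 0.24, beside 0.20 over all genes, without ank mouse 41, 0.88, beside 0.43, without ank mouse 31, and 0.76, beside 0.41, without WT mouse 33. After quantile normalization 16 of the 21 lay higher and the median was 0.17, beside 0.047 over all genes, and with the control AUC as a covariate the median was 0.13, beside 0.14 over all genes. Only Eif3m met the study's thresholds, a fold of 1.75 or more at an unadjusted p under 0.05, where 3.55% of all genes met them as higher and 0.147% as lower in ank. It was also the only one with an unadjusted limma p under 0.05, beside 3.77% of all genes, and the only one without overlap between the genotypes, beside 0.343%. No initiation factor passed the Benjamini-Hochberg adjustment in limma, and exact permutation tests likewise put only Eif3m under 0.05, beside 3.31% of all genes.

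**Figure D2:**
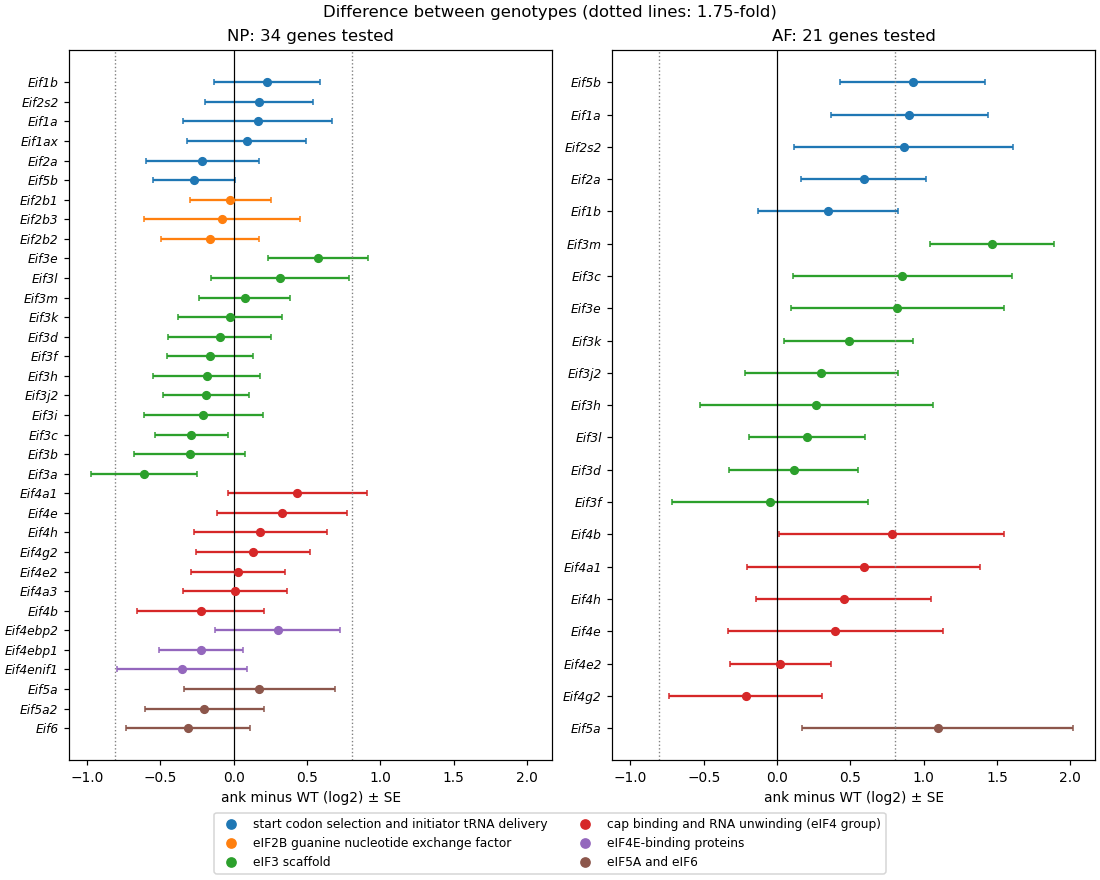
Difference ank minus WT (log2, horizontal axis, point) with its SE (bar) for the 34 genes tested in the NP and the 21 tested in the AF, grouped by role (colour); dotted lines mark 1.75-fold. In the AF 19 of 21 points lie right of 0, up to 1.47 for Eif3m, and in the NP 15 of 34 do.

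The factors of start codon selection and initiator tRNA delivery were higher in ank AF for all 5 members tested, by 0.35 to 0.93. Eif5b, the GTPase of subunit joining, had 8.65, 9.02, 8.69, 10.63 and 10.32 in ank AF and 8.16, 9.49, 8.05, 8.70 and 8.26 in WT AF. Ank mice 41 and 48 were above every WT mouse, the other 3 ank mice lay within the WT range, and WT mouse 33 was the highest of the WT mice. The difference was 0.93 ± 0.49 (SE, limma p = 0.0854, adjusted p = 0.947, exact permutation p = 0.127). Without ank mouse 31 and WT mouse 33 it was 1.37 and met the study's thresholds for fold and unadjusted p. So did 24.3% of all genes, as higher, a share that applies wherever this fit is given for a gene. These were the lowest ank and the highest WT array for Eif5b, so leaving them out raises its difference by construction. Eif1a, which encodes a form of the scanning factor eIF1A, had 7.12, 8.98, 9.16, 10.28 and 9.73 in ank AF and 7.94, 8.18, 7.82, 8.07 and 8.74 in WT AF. Here 4 ank mice were above every WT mouse and ank mouse 31 was below them all, and the difference was 0.90 ± 0.53 (SE, limma p = 0.117, adjusted p = 0.947, exact permutation p = 0.135). It was 1.40, past the same thresholds, without ank mouse 31 and WT mouse 33, and −0.011 within set A. Eif2s2, the beta subunit of eIF2, differed by 0.86, Eif2a, which can deliver initiator tRNA apart from eIF2, by 0.59, and Eif1b, close kin of eIF1, by 0.35. Eif1ad, Eif1ax and Eif2d were not tested in the AF because fewer than 5 arrays were above background.

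Among the 12 subunits of eIF3, 9 were tested in the AF and 8 of them had a higher mean in ank mice. After Eif3m the differences were 0.86 for Eif3c, 0.82 for Eif3e, 0.49 for Eif3k, 0.30 for Eif3j2, 0.27 for Eif3h, 0.20 for Eif3l, 0.11 for Eif3d and −0.05 for Eif3f. Their limma p-values ran from 0.274 for Eif3c to 0.943 for Eif3f. Eif3c, a core subunit of the complex, had 8.14, 10.59, 10.90, 12.17 and 11.50 in ank AF and 9.68, 11.48, 8.59, 9.15 and 10.12 in WT AF. Ank mouse 31 was the lowest of all 10 arrays and the other 4 ank mice lay between 10.59 and 12.17, while WT mouse 33, at 11.48, stood above the other WT mice. Without ank mouse 31 and WT mouse 33 the difference of Eif3c was 1.91 and met the study's thresholds. Eif3h showed the same low array more sharply, with 6.95 in ank mouse 31, 11.02 to 11.74 in the other 4 ank mice and 9.98 to 10.45 in WT mice. Its difference was 1.16 without ank mouse 31, 1.20 without ank mouse 31 and WT mouse 33, both past the thresholds, and −0.32 after quantile normalization, where Eif3d too turned, to −0.014. Eif3a, Eif3b and Eif3i were not tested in the AF.

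Of the 11 genes of the eIF4 group, 6 were tested in the AF. Eif4b, a cofactor of the helicase eIF4A, had the smallest p of the group, with 10.52, 13.69, 13.15, 15.09 and 14.63 in ank AF and 11.63, 13.69, 12.25, 12.51 and 13.09 in WT AF. The lowest value belonged to ank mouse 31 and the highest to ank mouse 41, so the WT arrays lay inside the ank range. The difference was 0.78 ± 0.77 (SE, limma p = 0.328, adjusted p = 0.947, exact permutation p = 0.389), and 1.77, past the thresholds, without ank mouse 31 and WT mouse 33. Eif4a1, the helicase itself, differed by 0.59, Eif4h, another of its cofactors, by 0.46, and Eif4e, the cap-binding protein, by 0.40. Eif4e2, a cap-binding homologue of eIF4E, differed by 0.02 and, after quantile normalization, by −0.17, and Eif4g2, a scaffold that lacks the eIF4E site, by −0.21.

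Eif5a, which helps ribosomes through difficult peptide bonds, had the second largest difference of the initiation factors tested in the AF. Its signals were 10.61, 13.74, 15.06, 16.34 and 15.53 in ank AF and 12.84, 14.43, 12.18, 12.72 and 13.62 in WT AF. Ank mice 39, 41 and 48 were above all WT mice and ank mouse 31 was below them all. The difference was 1.10 ± 0.93 (SE, limma p = 0.259, adjusted p = 0.947, exact permutation p = 0.349), with −1.46 within set A and 2.80 within set B. Without ank mouse 31 and WT mouse 33 it was 2.33 and met the thresholds. None of the 5 eIF2B subunits and none of the 3 eIF4E-binding proteins was tested in the AF. Eif2b3, the gamma subunit of eIF2B, was above background in 3 ank arrays and no WT array, with 4.27, 6.34, 8.06, 7.43 and 7.48 in ank AF and 4.99, 5.19, 4.18, 4.58 and 6.68 in WT AF, so that WT mice give only a bound and no difference is drawn.

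The size of the AF differences depended on which arrays were compared. Within spike-in set B, 3 ank against 3 WT mice, all 21 genes were higher in ank and 12 of them (57.1%) met the study's thresholds, where 22.8% of all genes did so as higher. The median difference there was 1.29, beside 0.67 over all genes. Within set A, 2 ank against 2 WT mice, 3 of the 21 were higher, none met the thresholds in either direction, where 1.25% of all genes did, and the median was −0.55, beside −0.25 over all genes. The arrays of ank mouse 31 and WT mouse 33 are both in set A. Without these 2 arrays 12 of the 21 met the thresholds (24.3% of all genes, higher) with a median of 1.20, beside 0.58 over all genes, without ank mouse 31 alone 8 did (14.8% of all genes, higher), and without WT mouse 33 alone 2 did (7.52% of all genes, higher). The 12 genes were the same within set B and without both arrays, namely Eif1a, Eif2a, Eif2s2, Eif3c, Eif3e, Eif3h, Eif3m, Eif4a1, Eif4b, Eif4h, Eif5a and Eif5b. The fit without both arrays holds every array of set B, and the arrays left out were chosen after seeing the data. By the median deviation of the 21 genes from their AF means they were the lowest ank array (−1.08) and highest WT array (0.66). Leaving them out thus raises ank minus WT of these genes as a group by construction. The shared list is therefore not a second, independent result. Each of these fits assumes a spread shared across genes from few arrays, and none of the genes passed the Benjamini-Hochberg adjustment of limma in any of them.

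**Figure D3:**
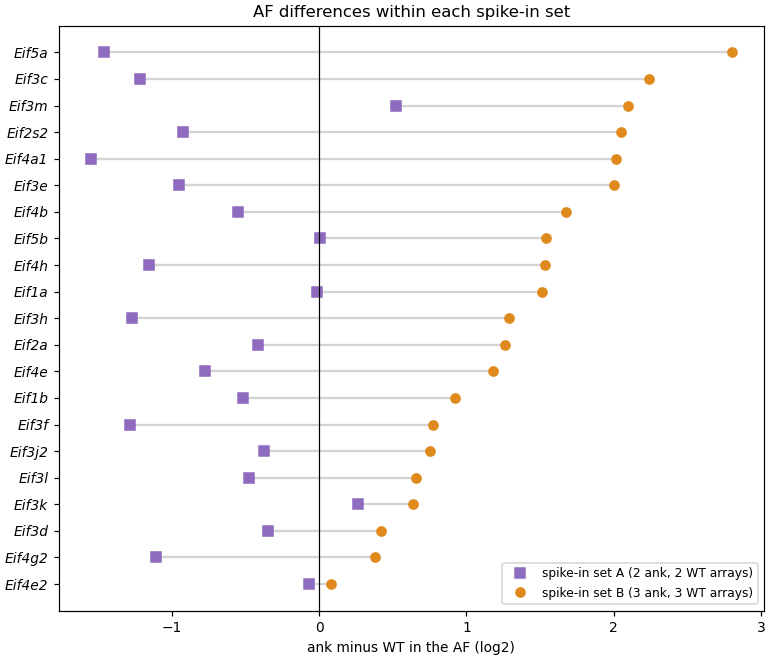
Difference ank minus WT in the AF (log2, horizontal axis) of the 21 genes tested, within spike-in set A (squares, 2 ank and 2 WT arrays) and set B (circles, 3 ank and 3 WT arrays). The circles all lie right of 0, up to 2.80 for Eif5a, while 18 of the squares lie left of it.

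The arrays differed in the level of these genes as a group. Measured as the median deviation of the 21 genes from their own AF means, the ank arrays stood at −1.08, 0.16, 0.24, 1.37 and 1.12, and the WT arrays at −0.45, 0.66, −0.78, −0.51 and −0.08. The same median over all genes tested was −0.48, 0.24, 0.04, 0.49 and 0.37 in ank AF and −0.07, 0.28, −0.64, −0.22 and −0.10 in WT AF. Ank mice 41 and 48, with 20 of the 21 genes above their own mean, and WT mouse 33, with 16, were the highest, and these 3 arrays also had the highest control AUC of the AF, at 0.749, 0.724 and 0.763. Ank mouse 31, with 2 genes above their own mean, had the lowest median and the lowest AUC. The NP marker list was likewise higher in ank AF, at 12.01 on average, than in WT AF, at 10.94, and its part in the result was not tested.

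**Figure D4:**
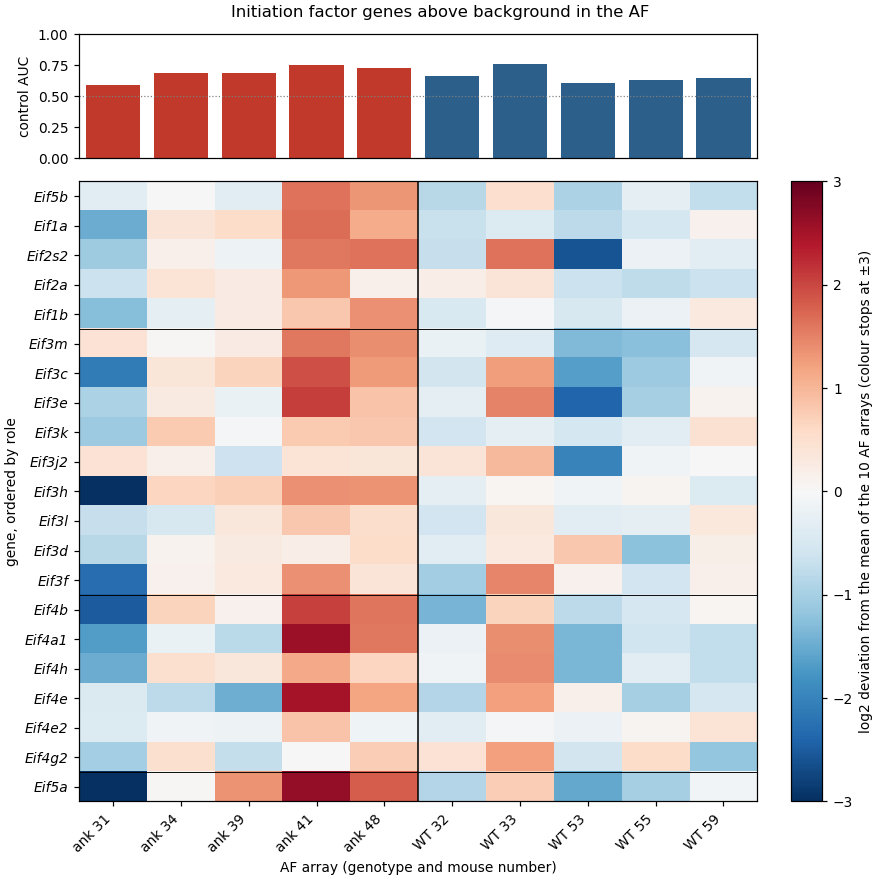
Deviation of each of the 21 genes from its mean over the 10 AF arrays (log2, colour), with ank arrays left and WT arrays right, under the control AUC of each array (bars; dotted line at 0.5, no separation of the controls). The columns of ank mice 41 and 48 are mostly red and that of ank mouse 31, whose AUC is 0.590, is mostly blue.

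In the NP none of the initiation factors passed a limma threshold. Of the 34 tested, 15 (44.1%) had a higher and 19 a lower mean in ank mice, where 37.8% of all 6340 genes tested were higher. The median difference was −0.05, beside −0.11 over all genes, and the values ran from −0.61 for Eif3a to 0.57 for Eif3e. No member met the study's thresholds, where 0.505% of all genes met them as higher and 2.81% as lower in ank. None had an unadjusted limma p under 0.05, beside 4.24% of all genes, and none was without overlap between the genotypes, beside 0.757%. By exact permutation tests 1 of the 34 (2.94%), Eif3c, had an unadjusted p under 0.05, beside 4.51% of all genes.

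Eif3e, a subunit of eIF3, had the smallest limma p of its group in the NP. Its signals were 10.16, 10.24, 11.46, 11.14 and 10.72 in ank NP and 10.48, 9.42, 10.46, 10.17 and 10.32 in WT NP. Ank mice 39, 41 and 48 were above every WT mouse and the other 2 lay within the WT range. The difference was 0.57 ± 0.34 (SE, limma p = 0.113, adjusted p = 0.973, exact permutation p = 0.127). Its unadjusted limma p came under 0.05 after quantile normalization, with a difference of 0.71, and with the control AUC as a covariate, with 0.68. Eif3e was the only 1 of the 34 under the limit in each of these fits, beside 4.83% and 6.01% of all genes. Eif3a, the largest subunit of eIF3, differed by the most in the other direction. It had 7.54, 7.37, 7.91, 8.20 and 7.24 in ank NP and 8.67, 7.30, 9.02, 8.53 and 7.80 in WT NP. All 5 ank mice lay below 3 of the WT mice, and WT mouse 33 was among the lowest. The difference was −0.61 ± 0.36 (SE, limma p = 0.113, adjusted p = 0.973, exact permutation p = 0.135), and 2 ank and 4 WT arrays were above background.

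Eif3c varied little within each genotype in the NP. It had 12.40, 12.23, 12.55, 12.49 and 12.29 in ank NP and 12.79, 12.63, 12.54, 12.91 and 12.55 in WT NP. Of the ank arrays only that of mouse 39, at 12.55, reached into the WT range, above WT mouse 53, at 12.54, and by less than 0.01 above WT mouse 59. The difference was −0.29 ± 0.25 (SE, limma p = 0.265, adjusted p = 0.973, exact permutation p = 0.0238), where limma draws unusually small spreads toward the common one and the permutation test does not. The NP difference of Eif3c shrank to −0.096 after quantile normalization and was −0.27 with the control AUC as a covariate. In the eIF3 complex as a whole 3 subunits were higher and 9 lower in ank NP, with a median of −0.17. Of all genes tested in the NP 37.8% were higher, with a median of −0.11.

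In the other role groups of the NP the gene with the smallest p was in each case far from the threshold. Eif5b had 9.66, 9.66, 9.84, 10.07 and 10.55 in ank NP and 10.21, 10.06, 10.53, 10.01 and 10.33 in WT NP. The 3 lowest arrays were ank arrays and the highest was ank mouse 48, a difference of −0.27 ± 0.28 (SE, limma p = 0.349, adjusted p = 0.973, exact permutation p = 0.214). Eif2b2, the beta subunit of eIF2B, had 6.69, 7.44, 7.10, 7.61 and 7.19 in ank NP and 7.68, 7.03, 7.41, 8.16 and 6.56 in WT NP, with the lowest and the highest value both in WT mice, and differed by −0.16 ± 0.34 (SE, limma p = 0.636, adjusted p = 0.987, exact permutation p = 0.627). Eif4a1 had 11.95, 11.16, 12.73, 13.81 and 12.97 in ank NP and 12.64, 11.41, 12.78, 11.37 and 12.26 in WT NP. Ank mouse 41 was the highest and ank mouse 34 the lowest, and the difference was 0.43 ± 0.47 (SE, limma p = 0.377, adjusted p = 0.973, exact permutation p = 0.452).

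Eif4enif1 encodes a protein that binds eIF4E and carries it into the nucleus. It had 8.98, 8.20, 9.53, 8.30 and 7.46 in ank NP and 9.16, 8.96, 9.24, 7.50 and 9.38 in WT NP, so that ank mouse 48 and WT mouse 55 were both about as low, and differed by −0.35 ± 0.44 (SE, limma p = 0.439, adjusted p = 0.973, exact permutation p = 0.484). Eif6, which keeps the ribosomal subunits apart until the large one is mature, had 9.14, 8.80, 8.61, 10.78 and 8.58 in ank NP and 9.78, 9.73, 9.89, 8.71 and 9.35 in WT NP. Ank mouse 41 was above every other array and the other 4 ank mice were below 4 of the WT mice, a difference of −0.31 ± 0.43 (SE, limma p = 0.476, adjusted p = 0.974, exact permutation p = 0.532). By role, 4 of 6 start codon factors, none of 3 eIF2B subunits, 6 of 7 genes of the eIF4 group, 1 of 3 eIF4E-binding proteins and 1 of 3 genes of eIF5A and eIF6 had a higher mean in ank NP, beside 37.8% of all genes tested.

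The level of the initiation factors was also set against the other tissue of the same mouse. The AF arrays have lower medians than the NP arrays and the tissues may have been normalized apart, so these differences are a description and were not tested. Over the 21 genes tested in both tissues the median of NP minus AF was 1.91, beside 1.27 over all 3905 genes, and 11 of the 21 were higher in the NP in all 10 mice, which held for 35.9% of all genes. After each mouse's median NP minus AF difference over the 3905 genes was subtracted, 2 of the 21 were higher in the NP in all 10 mice. The share of all genes was not counted for this. When each gene was placed as a percentile of its array, 1 of the 21 was higher in all 10 mice, beside 6.97% of all genes. Eif3m averaged 1.99 ± 0.59 in ank mice and 3.38 ± 0.44 in WT mice (SD, n = 5 each), the largest of the 21 in WT mice. Eif5b stood at 1.02, 0.65, 1.15, −0.57 and 0.23 in ank mice and at 2.05, 0.56, 2.48, 1.31 and 2.07 in WT mice. Only ank mouse 41 had less Eif5b signal in the NP than in the AF. Eif3j2 differed less between the tissues, by 0.30 in ank mice and 0.80 in WT mice on average, as did Eif4g2, by 0.87 in ank mice and 0.52 in WT mice.

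**Figure D5:**
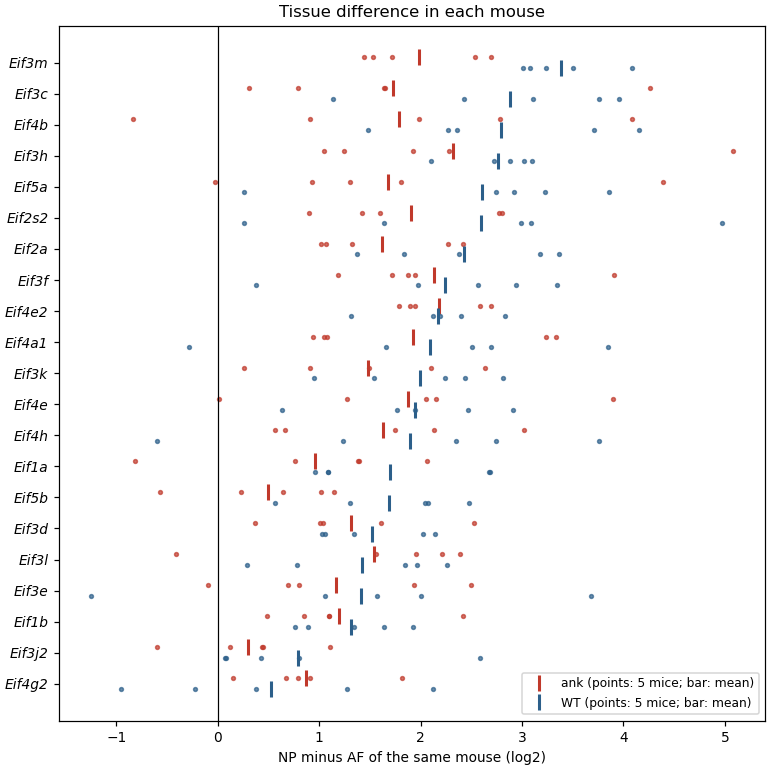
NP minus AF signal of the same mouse (log2, horizontal axis) for the 21 genes tested in both tissues, with a point per mouse and a bar at the mean of 5 mice, ank in red above WT in blue. Eif3m has the largest mean in WT mice, 3.38, and its points of the ank mice, 1.45 to 2.70, all lie left of those of the WT mice.

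Around the initiation factors, 48 further genes of translation were listed by role and 45 of them measured. In the AF 26 were tested, 22 of them higher and 4 lower in ank mice, where 72.4% of all genes tested were higher. Their median was 0.34, beside 0.28 over all genes. None met the study's thresholds, which 3.55% of all genes met as higher and 0.147% as lower. Asns, asparagine synthetase and a target of the stress factor ATF4, was the only one of the 26 with an unadjusted limma p under 0.05, beside 3.77% of all genes. It had 9.06 ± 0.41 in ank AF and 8.26 ± 0.49 in WT AF (SD, 5 mice each), a difference of 0.80 (limma adjusted p = 0.947). The difference was 0.71, and its p no longer under 0.05, without ank mouse 31 and WT mouse 33. Without these 2 mice 9 of the 26 met the thresholds as higher, or 34.6%, beside 24.3% of all genes. The ATF4 list had 3 genes tested in the AF, all higher in ank, with a median of 0.80. The smallest p of the other lists in the AF belonged to Eif2ak2, a kinase of eIF2, with 0.83, Dhps, the enzyme that starts the hypusine of eIF5A, with 0.43, Paip1, a partner of the poly(A)-binding protein, with 0.60, Rps6kb2, a kinase of the S6 family, with −0.46, and Etf1, the release factor, with 0.32.

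In the NP 34 of these genes were tested, 11 higher and 23 lower in ank mice, with a median of −0.15. Of all genes tested in the NP 37.8% were higher, and their median was −0.11. Eef1g, the gamma subunit of the elongation factor eEF1, was the only one of the 34 to meet the study's thresholds, as lower, which 2.81% of all genes did. It had 10.54 ± 0.39 in ank NP and 11.52 ± 0.53 in WT NP (SD, 5 mice each), a difference of −0.98 (limma adjusted p = 0.973). The genotypes overlapped, with ank NP up to 11.13 and WT NP from 10.64. Atf3, a stress-induced transcription factor, measured 11.71 ± 2.15 in ank NP and 9.92 ± 1.42 in WT NP (SD, 5 mice each), a difference of 1.79 (limma adjusted p = 0.973). Of the 5 genes of the ATF4 list tested in the NP 4 were higher in ank, with a median of 0.41, and all 4 eIF2 kinases and phosphatase subunits tested were lower, by at most 0.31, with Eif2ak1 giving the smallest p. Pabpc1, the poly(A)-binding protein, differed by −0.84, Pdcd4, an inhibitor of eIF4A, by −0.57, and Gspt1, a termination factor, by −0.45, each the smallest p of its list.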

How the data were processed

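RNA of NP and AF tissue was hybridised to Clariom S arrays, 1 per mouse and tissue. The authors processed the scans in the Transcriptome Analysis Console by sst-rma, which corrects background, quantile-normalizes and summarises probes, and deposited log2 values in 1 table of 28846 probe sets and 20 arrays. GEO's platform annotation gave 1 gene symbol to 19572 of these, and for 55 genes with several probe sets the brightest was kept. Arrays have no read depth, so the number of arrays and the signal over background limit the precision. The study's methods give only an approximate integrity value for the RNA used. Its part in the differences between arrays was not tested.

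Genotypes were compared within each tissue with limma 3.58.1 (lmFit, eBayes) in R 4.3.3, two-sided, with Benjamini-Hochberg adjustment over all genes tested, and counted at the study's thresholds. Single genes were also tested by exact permutation of the 252 labellings. Replicates are separate mice. The numbers of the AF and NP arrays pair them, since a number is an animal; deviations correlated within an animal by 0.157 (median, −0.185 to 0.677) and by −0.0159 between animals. Alternatives were other normalizations, filters, covariates, spike-in sets and leaving out each mouse.

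Values per array are given for initiation factors with an unadjusted p under 0.05 or no overlap, for Eif3m, and for the smallest p of each role group in each tissue; other genes so described (Eif1a, Eif3a, Eif3c, Eif2b3 and Eif3h) were chosen after their values were seen. The genes and lists were chosen with earlier results of these data known. Figures were drawn with matplotlib 3.10.9.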

Additional observations from a re-analysis of the deposited data

Results flagged for a closer look

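Of 110 sets of 5 arrays (a tested gene in 1 genotype and tissue), 7 held an array set far apart from the other 4, and chance alone flags about 1 in 20 sets. In ank NP the array of mouse 41 was high for Eif4a3, at 8.88 where the others lay between 7.31 and 7.76, and for Eif6, at 10.78 where the others lay between 8.58 and 9.14. In WT NP the array of mouse 55 was low for Eif4enif1, at 7.50, with the others between 8.96 and 9.38. In ank AF mouse 31 was low for Eif3h, at 6.95 against 11.02 to 11.74, mouse 39 was low for Eif3j2, at 7.59 against 8.38 to 8.66, and mouse 41 was high for Eif4e2, at 8.60 against 7.34 to 7.64. In WT AF mouse 59 was high for Eif3k, at 9.03 against 8.01 to 8.29.

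The genotype effects in NP and AF differed at an unadjusted p under 0.05 for Eif3m (−1.39) and Eif5b (−1.20), and neither passed the adjustment over all genes.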

How the results depend on the processing

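The count of initiation factors at the study's thresholds in the AF, 1 in the fit reported, was 2 without the filter on background (Eif2b3 and Eif3m, beside 2.5% of all genes), 2 in a fit of all 20 arrays with the mouse as replicate block (Eif3m and Eif5b, beside 6.59%), 0 within spike-in set A, 12 within set B and 12 without both ank mouse 31 and WT mouse 33, an alternative chosen after seeing the data. Leaving out 1 mouse at a time gave 1 to 8, beside 1.57% to 15.2% of all genes, the highest without ank mouse 31. The AF median of 0.49 was −0.55 within set A and 1.29 within set B, and 0.24 to 0.88 with 1 mouse left out, the lowest without ank mouse 41. The NP median of −0.05 was −0.25 to 0.074 with 1 mouse left out. In the NP the count of 0 became 1 within set A (Eif6) and 1 within set B (Eif4a1), 2.94% of the 34 beside 3.63% and 3.20% of all genes, and leaving out 1 mouse at a time gave 0 to 1 (Eif3a, without WT mouse 33, beside 4.56%). The tissue by genotype count of 2 was 0 after quantile normalization (3.15% of all genes), 2 with no replicate block (4.53%), 8 without both ank mouse 31 and WT mouse 33 (28.1%), also chosen after seeing the data, and 1 to 5 with 1 mouse left out, the highest without ank mouse 31 (13.4%). Eif3m met the thresholds in the AF in each fit with 1 mouse left out (1.26 to 1.64) and not within set A. Its NP difference of 0.07 was −0.14 within set A and ran from −0.069 to 0.26 with 1 mouse left out, and the AF difference of Eif1a was −0.011 within set A. Quantile normalization turned the sign of 3 of 21 genes in the AF and of 2 of 34 in the NP, Eif2b1 and Eif3k. Centring each array on its median moved every ank minus WT difference of a tissue by the same amount. The amount was −0.061 in the NP and 0.039 in the AF. The sign turned for 2 genes of the NP that lay near 0. The causes were not tested.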
